A study of Caenorhabditis elegans with 2 samples.

Results

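The histone genes described here are the 80 protein-coding genes of Caenorhabditis elegans whose Ensembl symbol starts with his- or hil-, out of 19985 protein-coding genes in the WBcel235 annotation, whose coordinates are those of ce11. They encode 9 linker H1 proteins, 17 H2A, 17 H2B, 15 H3, 5 H3.3 and 16 H4 proteins by their RefSeq product names, and 1 gene, his-73, had no class. The products of his-24 and his-39 named no class, and these genes were counted with H1 and H2B because their closest histone proteins were hil-2, at 64.9% identity, and his-11, at 53.3% identity. The 46-residue protein of his-73 was at most 33.9% like any other. Ensembl gave 58 symbols to the 80 genes, with 14 symbols used for 36 of them, so each gene is named here by the RefSeq symbol of its WormBase gene.

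CEH-79 is a homeobox protein, and its binding was mapped by chromatin immunoprecipitation and sequencing in 2 biological replicates of a single group. Both replicates were whole worms of strain OP553, which carries unc-119(tm4063) III and wgIs553, an integrated transgene for CEH-79 with GFP and FLAG at its C-terminus, precipitated with an antibody against GFP. The worms were young adults of pooled sex, taken 66 hours after synchronization as starved first-stage larvae, and they represent 1 transgenic line in which the tagged protein was carried by the transgene. The group was not set against another genotype, age or treatment, and no comparison between conditions was possible. A peak in whole worms can come from weak binding in many cells or strong binding in few, and these cannot be told apart.

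Core histones H2A, H2B, H3 and H4 form the protein spool around which DNA is wrapped, and H1 proteins bind the linker DNA between spools. In animals the core histone genes used during DNA replication occur as many near-identical copies, often as clusters of divergent pairs in which the genes of a pair are transcribed away from each other from a shared gap. H3.3 proteins are variants of H3 that can be deposited outside replication, and their genes usually stand alone.

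The 80 genes formed 15 loci of 2 or more genes, holding 67 genes, and 13 single genes, where neighbouring starts within 5 kb were joined. Among them were 31 divergent pairs with 62 genes, of which 16 joined H2A with H2B, 14 joined H3 with H4 and 1 joined H4 with H2A. The gap between the paired starts was 227 to 368 bp long with a median of 258 bp. For 65 of the 80 genes the annotated start was the first coding base, so the gaps were bounded by coding sequence rather than by mapped transcription starts.

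Copies were close to exact. The 15 H3 genes encoded 1 protein and the 16 H4 genes encoded 1 protein, while the 17 H2A genes encoded 2 and the 17 H2B genes encoded 5. The promoters, taken as 250 bp before to 50 bp after a start, were 59 distinct sequences, and 33 genes had a promoter identical to that of another histone gene. In 49 genes the best match was at least 90% identical.

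The sequences printed here were read from the WBcel235 genome, on the plus strand, 5′ to 3′. They show a gap that is repeated exactly beside gaps that are not, and the bases centred on the summits of strong candidate peaks at histone genes. Capitals mark, on either strand, the TATA-box word TATAAA, the GC-box word GGGCGG, the repeat word GAGAGA and the CCAAT-box word. The his-14/his-13 gap lies at chrII:13819938-13820209, and the his-10/his-9 gap was the same letter for letter while the his-25/his-26 gap was its reverse complement. The his-60/his-59 gap lies at chrIV:7487993-7488248, the his-2/his-1 gap at chrV:16042284-16042519 and the his-35/his-41 gap at chrV:9545289-9545535. The his-37 summit window lies at chrV:9546978-9547078, upstream of his-37, and the window of the candidate assigned to his-60 at chrIV:7488437-7488537, inside the his-59 coding exon.
his-14/his-13 gap: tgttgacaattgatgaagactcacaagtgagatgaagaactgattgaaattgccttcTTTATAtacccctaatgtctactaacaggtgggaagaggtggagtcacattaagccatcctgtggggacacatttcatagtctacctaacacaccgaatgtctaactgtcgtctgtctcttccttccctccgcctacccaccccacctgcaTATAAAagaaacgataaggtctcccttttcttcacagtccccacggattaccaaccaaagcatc
his-60/his-59 gap: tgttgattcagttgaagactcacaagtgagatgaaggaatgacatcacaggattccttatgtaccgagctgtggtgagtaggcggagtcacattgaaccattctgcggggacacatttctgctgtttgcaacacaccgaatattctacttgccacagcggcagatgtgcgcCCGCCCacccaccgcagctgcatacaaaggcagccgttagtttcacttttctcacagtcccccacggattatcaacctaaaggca
his-2/his-1 gap: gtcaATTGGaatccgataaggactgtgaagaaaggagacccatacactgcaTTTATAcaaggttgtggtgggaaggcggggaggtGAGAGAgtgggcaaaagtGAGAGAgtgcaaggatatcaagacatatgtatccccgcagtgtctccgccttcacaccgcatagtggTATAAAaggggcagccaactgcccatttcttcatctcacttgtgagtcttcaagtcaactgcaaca
his-35/his-41 gap: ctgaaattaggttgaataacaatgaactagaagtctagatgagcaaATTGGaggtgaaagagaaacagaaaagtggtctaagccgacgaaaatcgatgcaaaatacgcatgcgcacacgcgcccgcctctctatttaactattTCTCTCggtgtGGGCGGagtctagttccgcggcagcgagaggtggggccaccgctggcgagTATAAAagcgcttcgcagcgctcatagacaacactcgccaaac
his-37 summit: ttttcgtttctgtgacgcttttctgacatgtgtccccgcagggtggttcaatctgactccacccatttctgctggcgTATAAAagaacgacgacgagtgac
his-60 summit: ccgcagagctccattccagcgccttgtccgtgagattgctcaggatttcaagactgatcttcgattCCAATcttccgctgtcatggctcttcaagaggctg

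The repeated H4/H3 gap held 2 copies of TATAAA and no GGGCGG. The his-60/his-59 gap, also between H4 and H3 genes, was 68.4% identical to it and held 1 GGGCGG and no TATAAA. The his-2/his-1 gap was 64.0% identical to the repeated gap and 61.3% identical to the his-60/his-59 gap. It held 2 copies of TATAAA and 2 copies of GAGAGA. The gap of his-35 and his-41, an H2A/H2B pair, was 247 bp long and at most 50.2% like the gap of any other pair. The his-37 summit window held 1 TATAAA, and the window inside his-59 held 1 CCAAT.

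No histone gene had a CEH-79 peak in the optimal list, the 566 peaks that the authors kept as reproducible between the replicates. The count was 0 of 80 genes, against 1.48% of all protein-coding genes, at which 1.18 histone genes would have been counted. The exact interval of 0 of 80 reached up to 4.51%. A share like that of all genes was therefore not distinguishable from 0 at this number of genes. A summit was assigned to a gene where it lay from 1000 bp upstream to 200 bp downstream of an annotated start.

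The authors' pooled list holds 30000 candidates, most of them below the optimal threshold, and 24 histone genes had one in the window. This was 30.0% of 80 with an exact 95% interval of 20.3% to 41.3%, against 36.0% of all protein-coding genes. In the list of replicate 1 the count was 22 genes or 27.5%, against 36.4% of all genes, and in the list of replicate 2 it was 29 genes or 36.2%, against 36.4%. Candidates in both replicate lists were found at 17 histone genes, 21.2%, against 21.8% of all genes. This count asks for a summit in the window in each list and not for the same peak. At his-32, for example, the strongest summits were 889 bp upstream in replicate 1 and 143 bp upstream in replicate 2. These shares are near the background in each list. A candidate was absent from every list at 46 histone genes (57.5%), and the same share over all genes was not counted.

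The strongest pooled candidate of the 24 genes had a median signal of 40.4 (exact 95% interval of the median 30.5 to 50.4), against 35.6 over all protein-coding genes with a candidate. These strongest candidates were 20 distinct peaks, so the interval, which treats genes as separate, is too narrow. The signal is the authors' own value for each peak and is compared only within a list. The corresponding medians were 24.5 against 22.8 in replicate 1 and 20.7 against 18.8 in replicate 2. The lowest signal in the optimal list was 86.5, above every histone candidate.

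**Figure D1:**
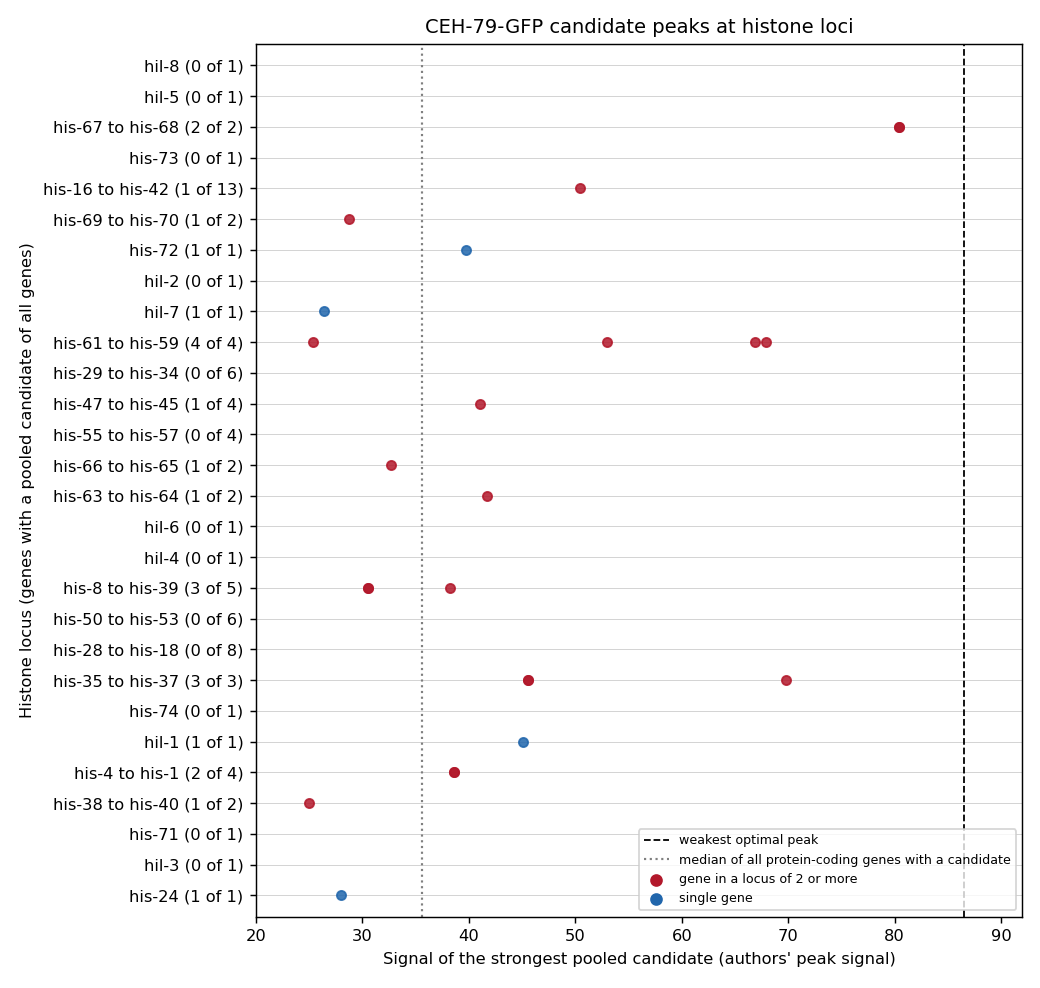
Each row is a histone locus, with its number of genes that had a pooled candidate, and each point is the authors' peak signal of a gene's strongest pooled candidate, red in loci of 2 or more genes and blue at single genes (points of genes that share a peak coincide). The highest point, 80.4 at his-67 and his-68, lies left of the dashed line at 86.5, the weakest optimal peak, and 4 of the 15 multi-gene loci are empty.

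The strongest candidate lay at the his-67/his-68 pair, whose genes encode H4 and H2A. Its interval was chrI:9988447-9988870, with a signal of 80.4 and rank 720 of the pooled list, and its summit lay in the his-67 coding exon, 104 bp downstream of the his-67 start and 473 bp upstream of the his-68 start. It ranked 3547 in replicate 1 with a signal of 32.9 and 391 in replicate 2 with a signal of 47.2, with summits within 7 bp of the pooled one. A second pooled candidate, of rank 6426, had its summit in the gap between the pair and overlapped the first. It also lay in a window of alg-5, a gene that is no histone.

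His-37, an H4 gene in the same locus as the his-35/his-41 pair but outside it, had the next candidate. The interval chrV:9546816-9547239 had a signal of 69.8 and rank 1167, and the summit, in the window printed above, was 77 bp before the first base of the gene. The replicates placed it far apart in rank, at 416 in replicate 1 and 7773 in replicate 2, with signals of 57.3 and 21.9. The better rank came from replicate 1 here, and from replicate 2 at his-67 and his-68.

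The locus of his-61, his-62, his-60 and his-59 was the one locus of 4 or more genes with a candidate at every gene. His-62, which encodes H2B, had a candidate of rank 1285 and signal 67.9 with its summit in the coding exon of his-61, the H2A gene of the pair. His-60, which encodes H4, had one of rank 1358 and signal 66.9 in the coding exon of his-59, the window printed above. His-59, which encodes H3, had one of rank 3158 and signal 53.0 in the coding exon of his-60. For his-61 the summit lay in the his-62 coding exon at rank 25909 and signal 25.4. In the pooled list, then, the strongest summit assigned to each gene of this locus lay in the partner gene. In replicate 1 this held for his-60, while the his-62 and his-59 summits were intergenic and that of his-61, at rank 27384, lay in its own coding exon. The his-62 and his-60 candidates ranked 975 and 929 in replicate 1 but 9606 and 11405 in replicate 2, whereas the his-59 candidate ranked 2076 in replicate 1 and 2250 in replicate 2.

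**Figure D2:**
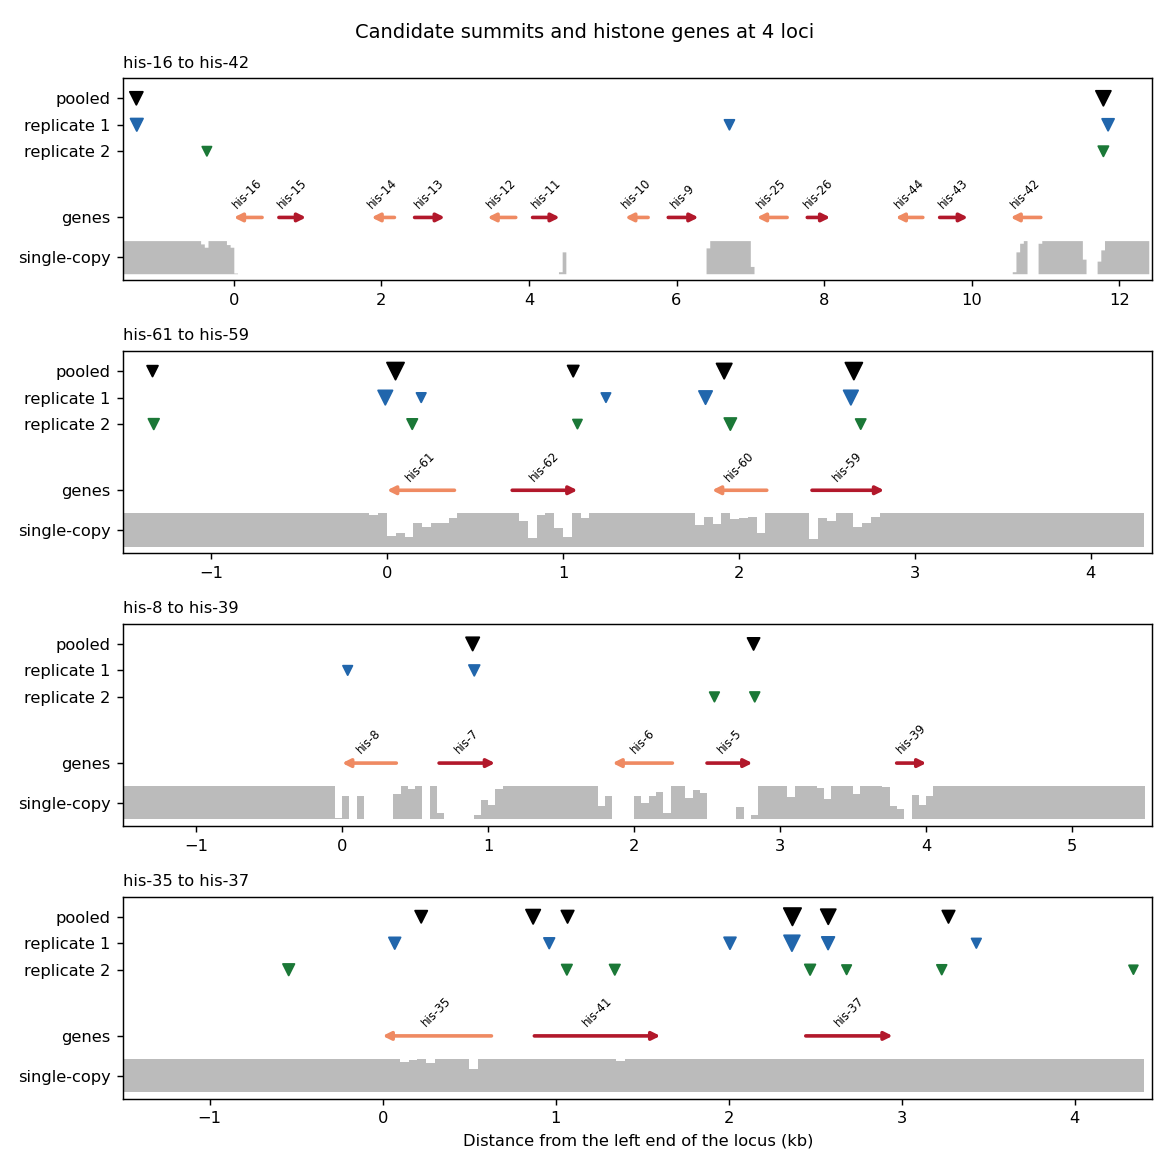
Maps of 4 loci in kb from the left end of the locus, with arrows for histone genes in their direction of transcription, triangles for candidate summits of the pooled, replicate 1 and replicate 2 lists (size grows with signal), and in grey the share of single-copy 36-base words in steps of 50 bp. At his-61 to his-59 the larger pooled triangles stand over genes rather than gaps, and from his-16 to his-42 the grey track is near 0 over most of the locus and the pooled row is empty between its ends.

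Of the 27 distinct pooled candidates in windows of histone genes, 13 had the summit inside a histone gene, 2 in a divergent gap and 12 elsewhere. Overlapping intervals joined into 21 separate regions. The same split was 10 inside a gene, 2 in a gap and 15 elsewhere among 27 candidates of replicate 1, and 15, 2 and 15 among 32 candidates of replicate 2. By annotation, 9 of the 27 summits (33.3%) were in coding exons, against 26.9% of the 8977 pooled candidates in the windows of all protein-coding genes. Introns held 4 (14.8%), against 23.0%, and intergenic sequence held 14 (51.9%), against 40.0%.

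The gap summits were at his-35/his-41, 7 bp upstream of the his-41 start, and at his-67/his-68 in the pooled list. In replicate 1 they were at his-67/his-68 and his-2/his-1, and in replicate 2 at his-67/his-68 and his-31/his-32, where the rank was 4690. Only the his-67/his-68 gap held a summit in all 3 lists. Counted per 10 kb of bases that begin a single-copy 36-base word, the genes of the divergent pairs held 17.9 pooled summits (11 summits) and the gaps 6.68 (2 summits), against 3.25 over the nuclear genome. In replicate 1 the values were 13.0 in the genes and 6.68 in the gaps, and in replicate 2 they were 19.5 and 6.68. These counts include summits on repeated bases, which the divisor leaves out. Per 10 kb of all bases the pooled values were 4.50 in the genes and 2.39 in the gaps, against 2.99 over the nuclear genome, so the gaps lay above the genome by one divisor and below it by the other. Each gap figure rests on 2 summits, and 99.9% of pooled candidates, including these 27, are 424 bp wide, longer than any gap, so the place of a summit is less certain than a base position implies.

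Support in both replicates was counted for the same candidates. Of the 27 pooled candidates, 19 (70.4%, exact 95% interval 49.8% to 86.2%) overlapped a candidate in each replicate list by at least 1 bp, against 52.4% of the 8977. Summits were then compared, taking in each replicate list the strongest candidate that overlapped. Both replicate summits lay within 100 bp of the pooled one in 6 of the 27 (22.2%), against 20.3% of the 8977. A weaker replicate candidate with a nearer summit was not used, as at the pooled candidate of rank 6426. The difference in overlap was not tested, because neighbouring histone candidates overlap the same replicate peaks. Among the 27, 4 (14.8%) had an authors' q-value under 0.05, those assigned to his-67 and his-68, his-37, his-62 and his-60, against 7.70% of the 8977.

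**Figure D3:**
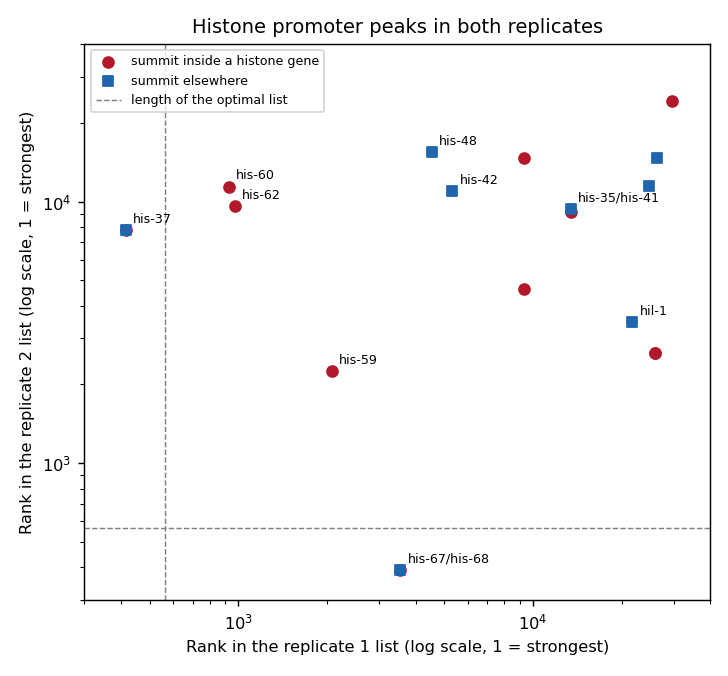
Rank in the replicate 2 list against rank in the replicate 1 list, both on log scales, for the 19 pooled candidates of histone genes that overlap both lists (red circles, summit inside a histone gene; blue squares, summit elsewhere; dashed lines at rank 566, the length of the optimal list). Each rank is that of the strongest overlapping candidate in the replicate list, so pooled candidates that overlap the same replicate peaks coincide. No point is past both dashed lines, and his-37 (416 and 7773) and his-67/his-68 (3547 and 391) are each past one.

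Of the 27 peaks, 6 served more than 1 histone gene, and 4 also served other genes. How many of the 8977 candidates of all genes served more than 1 gene was not counted. The H3/H4 pair his-2/his-1 shared the candidate of rank 9295 and signal 38.6, with its summit in the his-1 coding exon. The his-35/his-41 pair shared the candidate of rank 5355 and signal 45.6 in the gap printed above, which also lay in a window of C50F4.6. His-6, which encodes H3, and his-39 shared one of rank 17735 and signal 30.5. Of the 31 pairs, 5 had a pooled candidate at both genes, 6 at 1 gene and 20 at neither.

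His-42, an H3 gene at the edge of the largest locus, had a signal of 50.4 at rank 3811, with the summit 848 bp upstream and 54 bp from F08G2.10, which is annotated as an snRNA gene. The strongest signals at his-64 (41.7), his-48 (41.0) and his-8 (38.2) were lower, and his-65 (32.7), his-70 (28.7) and his-40 (rank 26641) had pooled signals under the 35.6 median of all genes with a candidate. The his-8 summit lay in the his-7 coding exon, and the stretch centred on it, as long as the summit windows printed above, had 4 other exact places in the genome. In 25 of the 27 candidates that stretch had no other exact place.

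A pooled candidate was found at 20 of 67 clustered genes (29.9%, exact 95% interval 19.3% to 42.3%), against 4 of 13 single genes (30.8%, 9.09% to 61.4%). Over all protein-coding genes the share was 36.0%. Windows of single genes were at least 85.2% single-copy in 36-base words, while those of clustered genes went down to 0%. The shares therefore do not compare clustering alone. The strongest at a single gene was at hil-1, which encodes H1.X, with a signal of 45.1 at rank 5578 and a distance of 867 bp from summit to start. It ranked 21721 in replicate 1 and 3457 in replicate 2. The H3.3 gene his-72 had its strongest candidate at rank 8530 and signal 39.7, in an intron and 27 bp from the snoRNA gene Y49E10.36. The strongest candidate of his-72 ranked 9307 in replicate 1 and 4617 in replicate 2.

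The linker gene his-24, whose protein is closest to that of hil-2, had a signal of 28.0 at rank 21499, 75 bp upstream of the start, and ranked 10521 in replicate 1. Hil-7, another linker gene, had a signal of 26.4 at rank 24195, 95 bp upstream of the start and 468 bp from the snoRNA gene C01B10.48, and ranked 6664 in replicate 1. Neither had a candidate in replicate 2. The remaining 9 single genes had no pooled candidate, although the H3.3 gene his-71 had one of rank 6854 and the linker gene hil-2 one of rank 19725 in replicate 2. Hil-3, hil-4, hil-5, hil-6, hil-8, his-73 and his-74 had none in any list. Near a short noncoding gene, within 500 bp, were 4 of the 27 pooled candidates (14.8%), against 3.13% of the 8977, and 2 of these 4 are overlapping candidates of his-72 beside the same snoRNA gene.

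By class, a pooled candidate was found at 3 of 9 H1 genes, 4 of 17 H2A genes, 5 of 17 H2B genes, 5 of 15 H3 genes, 2 of 5 H3.3 genes and 5 of 16 H4 genes, with none at his-73, against 36.0% of all protein-coding genes. The exact intervals of these shares overlapped. In replicate 2, 9 of 16 H4 genes (56.2%, exact 95% interval 29.9% to 80.2%) had a candidate, against 36.4% of all genes, while 4 of 16 did in replicate 1.

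Histone genes without candidates had mostly repeated windows. In the window of a histone gene a median of 42.7% of 36-base words occurred once in the genome, counting both strands, whereas the median over all protein-coding genes was every word. The median was 86.6% in histone genes with a pooled candidate and 8.28% in those without, and 3.09% in those in no list. Where under 50% of words were single-copy, 2 of 40 histone genes (5.00%) had a pooled candidate, against 5.57% of 574 other protein-coding genes. From 50% to under 90% it was 13 of 23 (56.5%, exact 95% interval 34.5% to 76.8%), against 26.3% of 1948 other genes, and from 90% it was 9 of 17 (52.9%, 27.8% to 77.0%), against 38.2% of 17371. With longer words more histone windows reached 90%. At 50-base words 16 of 27 histone genes there (59.3%, 38.8% to 77.6%) had a candidate, against 38.0% of 17871 other genes, and at 75-base words 18 of 31 (58.1%, 39.1% to 75.5%), against 37.7% of 18397. In windows from 90% the interval of the histone genes thus took in the share of other genes with 36-base words and lay above it with 50-base and 75-base words. From 50% to under 90% the order was the reverse. There the interval lay above the other genes with 36-base words but took in their share with 50-base words, at 6 of 13 (46.2%, 19.2% to 74.9%) against 23.8% of 1564, and with 75-base words, at 4 of 9 (44.4%, 13.7% to 78.8%) against 20.4% of 1110. Below 50% the histone share was 5.00% with each length. Read length and the treatment of reads with several places were not stated in the labels or notes, and the part of the copies in the result was not tested. Histone genes in a locus share peaks, so these intervals, which treat genes as separate, are too narrow.

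**Figure D4:**
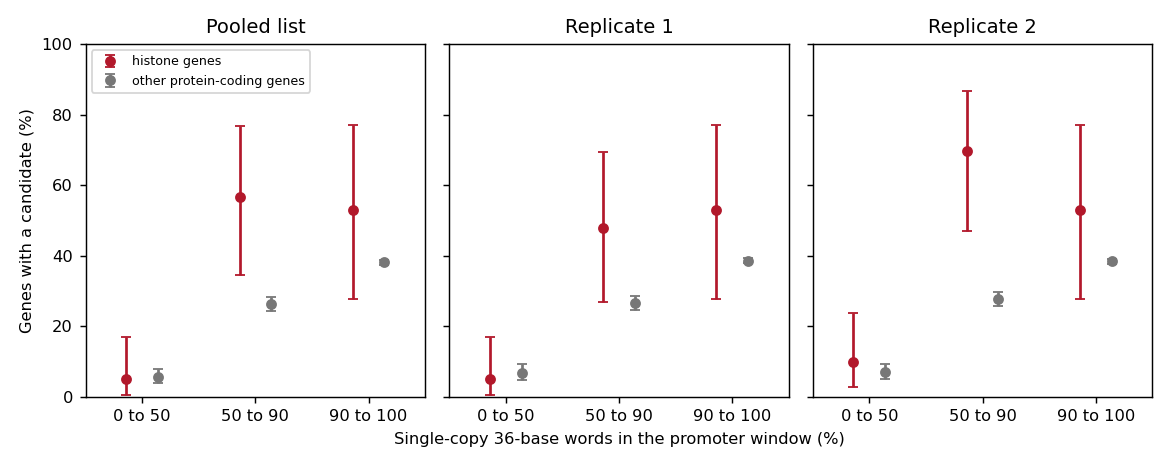
Percentage of genes with a candidate in the promoter window, for histone genes (red, left of each pair) and other protein-coding genes (grey), in 3 ranges of the share of single-copy 36-base words, with exact 95% binomial intervals. In the lowest range the pooled values are 5.00% and 5.57%, and in the range of 50% to 90% the histone genes are at 56.5% against 26.3%.

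The multi-gene loci without a pooled candidate were his-29 to his-34 (6 genes), his-55 to his-57 (4 genes), his-50 to his-53 (6 genes) and his-28 to his-18 (8 genes), together 24 genes. In his-50 to his-53 no 36-base word of any window was single-copy, and in his-28 to his-18 the median was 0%. The locus his-16 to his-42, 10938 bp long with 13 genes and 6 pairs, had its 1 candidate at his-42, whose window was 67.7% single-copy, and no pooled summit inside its span. All of the his-4/his-3 gap was single-copy, although the windows of his-4 and his-3 were 70.2% and 66.4% single-copy, and neither gene had a candidate in any list. In the locus his-29 to his-34 the windows of his-31 and his-32 were 87.5% and 85.9% single-copy without a pooled candidate.

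Among divergent pairs, 17 gaps held no single-copy 36-base word and 8 were single-copy throughout. A pooled candidate in the window of at least 1 gene was found at 2 of the 17 and at 6 of the 8. The 2 were at his-48 and his-65, with summits 921 bp and 801 bp upstream, in intergenic sequence past the partner gene. Among the 6, the his-40 summit, 813 bp upstream, also lay past the partner gene. In replicate 1 the counts were 2 of 17 and 7 of 8, and in replicate 2 they were 3 of 17 and 7 of 8. All multi-gene loci together, 57026 bp, held 16 pooled summits or 2.81 per 10 kb, against 2.99 per 10 kb in the nuclear genome.

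The edge of the window decided some genes. Just inside were his-39, 980 bp upstream, and his-48, 921 bp upstream. Just outside was his-66, an H2B gene, with a summit 1008 bp upstream in the intergenic interval chrIV:11401582-11402005, which ranked 664 with a signal of 82.4, above every candidate inside a histone window. It ranked 487 in replicate 1 and 984 in replicate 2, and lay in the window of no protein-coding gene. In replicate 2 its summit was 940 bp upstream of his-66 and counted there. His-58 had the next, 1027 bp upstream in an intron of his-57 at rank 4748, and hil-4 had one at rank 4564 in its own intron, 320 bp downstream of the start.

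The median GC content of histone promoters was 48.0%, against 34.3% over 19973 promoters, and the stretches centred on the summits of their candidates had 46.5%, against 40.6% over the 8977. The TATA-box word was in 63.8% of histone promoters, against 37.9%. The GC-box word GGGCGG was in 32 of 80, against 7.83% of all, and GAGAGA was in 43.8%, against 21.8%. The homeodomain core word TAATTA occurred in 1.25%, against 15.5%, and the octamer ATTTGCAT in none, against 2.86%. The CCAAT-box word was found in 53.8%, against 45.5%. GTTGCC was in 8 of 80, against 7.28% of all, and GTTCGA was in 5.00%, against 9.85%. Words were searched on both strands, and none of the 8 contains another. Many histone promoters are copies of each other, and counted once per distinct sequence 36 of the 59 held TATAAA, 44.1% held GGGCGG and 1.69% held TAATTA. The 59 still include both genes of a divergent pair. Promoters of such partners take in much of the same gap, so a word there can count at both. Among the 24 genes with a pooled candidate, the GC-box word and the CCAAT-box word were each found in 62.5%. The repeat word was found in 58.3%, and these shares were above those of the 80. The TATA-box word was below its share of the 80, at 54.2%. These shares were not counted over all protein-coding genes with a candidate, and the 24 include divergent partners that read the same gap. A link between a word and candidates was therefore not tested.

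Genes for histone chaperones, other histone variants and histone mRNA binding were read in the same way. Of 19 such genes, 7 (36.8%) had a pooled candidate, against 36.0% of all genes, 8 had one in replicate 1 and 10 in replicate 2, against 36.4% of all genes in each replicate list. Lin-53, which encodes a histone-binding protein, had the one optimal peak among them (5.26% of 19, against 1.48% of all genes), with a signal of 88.9 at pooled rank 515, ranking 1100 in replicate 1 and 594 in replicate 2. Its interval also lay in the window of nra-2. Htz-1, which encodes the H2A variant H2A.Z, had a signal of 37.2, and hcp-3, which encodes the centromeric H3 variant, had 43.5.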

How the data were processed

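Chromatin immunoprecipitation of CEH-79-GFP was deposited for 2 replicates in 1 group. Per the deposited notes, each replicate's reads and the pooled reads were called against 1 control alignment, and thresholding by the irreproducible discovery rate gave the optimal list. No source used here names the aligner, caller or versions. The deposited peak signal and the deposited −log10 q-value are the authors' own, and values were compared within a list only. The lists hold no reads, so depth is unknown and intervals (exact Clopper-Pearson, 95%) cover counting of genes or peaks only.

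Genes and starts came from Ensembl release 115 and symbols and products from RefSeq by WormBase ID. Summits were assigned to every annotated start. Of several annotated proteins of a gene the one most like another histone was used. Identity is from edit distance (edlib). Assignment and word counting were tested on simulated data. Short words were searched in 250 bp before to 50 bp after the start. The lists in ce10 were not used. The named genes were every single gene, genes of the strongest peaks and the top gene of each locus. The members and lists were chosen with earlier results of these data known, and the single-copy measure, with its main word length of 36 bases and its alternative of 75, after the candidate counts were seen. A length of 50 bases was added after that result was known. A gene whose product names no class took that of the nearest protein from 50% identity, a level set with the identities known. Windows, starts, overlap, threshold, cluster distance and each replicate were varied.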

Additional observations from a re-analysis of the deposited data

How the results depend on the processing

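Of 67 alternative values, 57 stayed close to the main ones (counts within 1.5 times, medians and shares within the exact interval of the main value) and 10 moved. The 57 include optimal counts of 0 that narrower settings and other cluster distances could not change. Both other cluster distances left 67 genes clustered, so the clustered and single counts could not move there. With a window of 500 bp upstream to 100 bp downstream, 12 of 80 histone genes had a pooled candidate, against 23.0% of all genes. In both replicates there were 6 of 80, against 11.6%, and there were 12 distinct peaks and 9 clustered genes. With 2000 bp upstream to 500 bp downstream, 26 of 80 had one in both replicates, against 39.6% of all genes, and 7 single genes had a pooled candidate. The count with a pooled candidate was then 32 of 80, a lower share than the 53.7% of all genes. It was within 1.5 times the main count of 24, although the share of all genes rose from 36.0%. Leaving out replicate 1 or 2 gave 22 to 29 genes with a candidate, against 36.4% of all genes either way, 27 to 32 distinct peaks and 18 to 25 clustered genes. The 566 strongest candidates of the remaining replicate, in place of the optimal list, reached 2 genes without replicate 1 (his-67 and his-68), against 1.33% of all genes, and 1 without replicate 2 (his-37), against 1.48%, all clustered. The optimal count was 0 under the other alternatives, of which only the wider window and any overlap could have raised it. The cause of these shifts was not tested. Word lengths of 50 and 75 bases, chosen after seeing the data, gave 46.2% and 44.4% in place of 56.5% in windows of 50% to 90% single-copy sequence, and 59.3% and 58.1% in place of 52.9% from 90%. No paired analysis was possible because there was 1 group and no contrast. With 80 genes, the exact interval of the 0 genes with an optimal peak reached up to 4.51%.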
